A study of Mus musculus with 6 samples.

Results

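The 9 genes described here are Cx3cr1, P2ry12, P2ry13, Tmem119, Csf1r, Siglech, Sall1, Gpr34 and Olfml3, whose transcripts mark microglia at rest in the adult mouse brain. They were taken by gene symbol: every probe set that the platform annotation assigns to exactly 1 of these symbols was used, which gave 13 probe sets out of 45037 and 9 genes out of 18193. Total RNA from the brains of C57/Bl6 mice at 2 months of age had been hybridised to 6 one-colour arrays, 2 per group. Pofut1 knockout mice carried the Nestin-Cre transgene together with floxed alleles on both copies of Pofut1. NestinCre control mice carried the same transgene and wild-type Pofut1. Flox control mice carried the floxed alleles on both copies and no Cre. The series asks what the loss of Pofut1, which adds O-fucose to Notch receptors, does to adult neural progenitors.

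Microglia are the resident macrophages of the brain parenchyma. They descend from yolk-sac progenitors. By contrast, the Nestin promoter of this transgene is known for driving Cre in neural progenitors, which produce neurons and the other glia. Under resting conditions microglia survey the tissue with motile processes, and their identity depends on signals through Csf1r and the TGF-beta receptors and on the transcription factor Sall1. When microglia respond to injury or disease, several of the resting transcripts are known to decline while others, such as Clec7a, Itgax and Apoe, increase. The 9 genes fall into surface receptors (Cx3cr1, Csf1r), purine and lipid receptors (P2ry12, P2ry13, Gpr34), other surface or secreted proteins (Tmem119, Siglech, Olfml3) and a nuclear factor (Sall1).

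P2ry12 and P2ry13, which encode receptors for ADP, lie next to each other in the order of protein-coding genes in the RefSeq table. RefSeq promoter windows on GRCm38.p6, from 250 bases before to 50 bases after a gene's start, matched 6 of the 9 genes with 8 windows in all. The PU box, GAGGAA or TTCCTC on the opposite strand, which the myeloid factor encoded by Spi1 binds, was the only motif searched in them. It occurred in 2 of the 8 windows, those of P2ry13 and Siglech, and in 28.3% of all 32851 windows of that length. The windows of the neighbouring pair and of Siglech are shown, 5′ to 3′ on the gene's strand, because P2ry12 and P2ry13 are compared with each other below and P2ry13 and Siglech hold the matches. Capitals mark the PU box. The P2ry12 window is chr3:59262936-59263235 on the minus strand, that of P2ry13 is chr3:59210833-59211132 on the minus strand, and that of Siglech is chr7:55767934-55768233 on the plus strand.
P2ry12: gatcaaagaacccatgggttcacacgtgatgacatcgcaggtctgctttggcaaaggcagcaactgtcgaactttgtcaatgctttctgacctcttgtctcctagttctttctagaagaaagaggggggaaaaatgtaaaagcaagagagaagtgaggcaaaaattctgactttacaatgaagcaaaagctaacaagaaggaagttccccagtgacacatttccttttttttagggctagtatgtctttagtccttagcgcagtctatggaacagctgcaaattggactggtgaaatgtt
P2ry13: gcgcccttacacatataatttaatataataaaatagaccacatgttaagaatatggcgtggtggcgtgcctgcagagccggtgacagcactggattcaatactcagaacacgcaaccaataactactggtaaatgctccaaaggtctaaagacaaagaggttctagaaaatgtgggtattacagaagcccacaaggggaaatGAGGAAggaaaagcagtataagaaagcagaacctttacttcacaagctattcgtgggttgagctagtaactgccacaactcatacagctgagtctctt
Siglech: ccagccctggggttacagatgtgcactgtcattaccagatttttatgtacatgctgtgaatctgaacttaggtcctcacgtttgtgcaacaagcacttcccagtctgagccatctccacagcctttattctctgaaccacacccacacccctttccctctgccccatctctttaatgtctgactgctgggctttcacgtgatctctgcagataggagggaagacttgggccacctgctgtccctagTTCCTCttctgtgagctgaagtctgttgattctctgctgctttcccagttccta

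In the P2ry13 window the match ran from base -48 to base -43 before the start and lay on the gene's own strand. The match in the Siglech window ran from base -4 to base 2, counting the start itself as base 1, and lay on the opposite strand. A match is a description of the letters in the window.

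Array medians lay between 7.32 and 7.36 on the log2 scale, and the lowest intensity of an array was about 38, so no gene is at 0 in these values. Pofut1 was lower on both knockout arrays. Its brightest probe set read 9.25 and 9.44 on the knockout arrays, 9.84 and 9.77 on the NestinCre control arrays, and 9.95 and 9.81 on the Flox control arrays (log2 intensity). The log2 difference of knockout from both controls was -0.50 (SE 0.08), with an adjusted p of 0.211 from limma, so the targeted gene itself did not pass the threshold. Whether its probe sets fall inside the floxed segment was not determined here. Xist and the Y-linked Eif2s3y placed knockout replicate 1 and NestinCre control replicate 2 as male and the other 4 arrays as female. The pituitary hormone transcripts Gh and Prl were high on the Flox control arrays: Gh read 7.87 and 9.40 there, against 6.91 and 6.53 on knockout arrays and 5.92 and 5.84 on NestinCre control arrays. For the tissue label, all 10 neuronal, all 10 astrocyte and 9 of 9 measured oligodendrocyte marker genes were brighter than the median probe set.

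None of the 13 probe sets differed between knockout and control brain at an adjusted p under 0.05 in limma's moderated test. The knockout was set against the mean of both control groups together and against each control alone, and the 2 controls against each other. The adjusted p of every probe set was 0.484 or higher against both controls, where 0.0155% of all probe sets passed. Against the NestinCre control alone, 0% of all probe sets passed, and against the Flox control alone 0.00444% passed. At an unadjusted p under 0.05 the counts were 0 of 13 against both controls, where 11.1% of all probe sets passed, 1 of 13 against the NestinCre control, where 5.81% passed, and 0 of 13 against the Flox control, where 15.9% passed. The shares among these genes were therefore near or under the background, and the single probe set that passed belongs to Cx3cr1. In tissue RNA, fewer cells of a type and less RNA per cell cannot be told apart, and this holds for every level given here.

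Although no gene passed, the differences leaned to one side. Against both controls 12 of 13 probe sets and 8 of 9 genes lay above 0, and the median difference over the brightest probe set of each gene was 0.10 on the log2 scale, against -0.02 over all 18193 genes, of which 40.65% lay above 0. Against the NestinCre control the median of the 9 genes was 0.14, and against the Flox control it was 0.07. These last 2 comparisons and the first share the knockout arrays and, in part, the control arrays. The range over genes against both controls ran from -0.01 for Gpr34 to 0.19 for Cx3cr1. Without knockout replicate 1 the direction turned for P2ry12 (-0.03), and without knockout replicate 2 it turned for Tmem119 (-0.08), Olfml3 (-0.06) and 2 of the Csf1r probe sets (-0.0025 and -0.07). The median over the 9 genes was 0.06 without knockout replicate 2. Gpr34 turned above 0 without knockout replicate 1 (0.05), NestinCre control replicate 2 (0.06) or Flox control replicate 1 (0.04). A p that misses the threshold does not show equal levels, and the intervals below give the differences that the arrays allow. A count of members was not tested, since the genes are not replicates of one another.

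**Figure D1:**
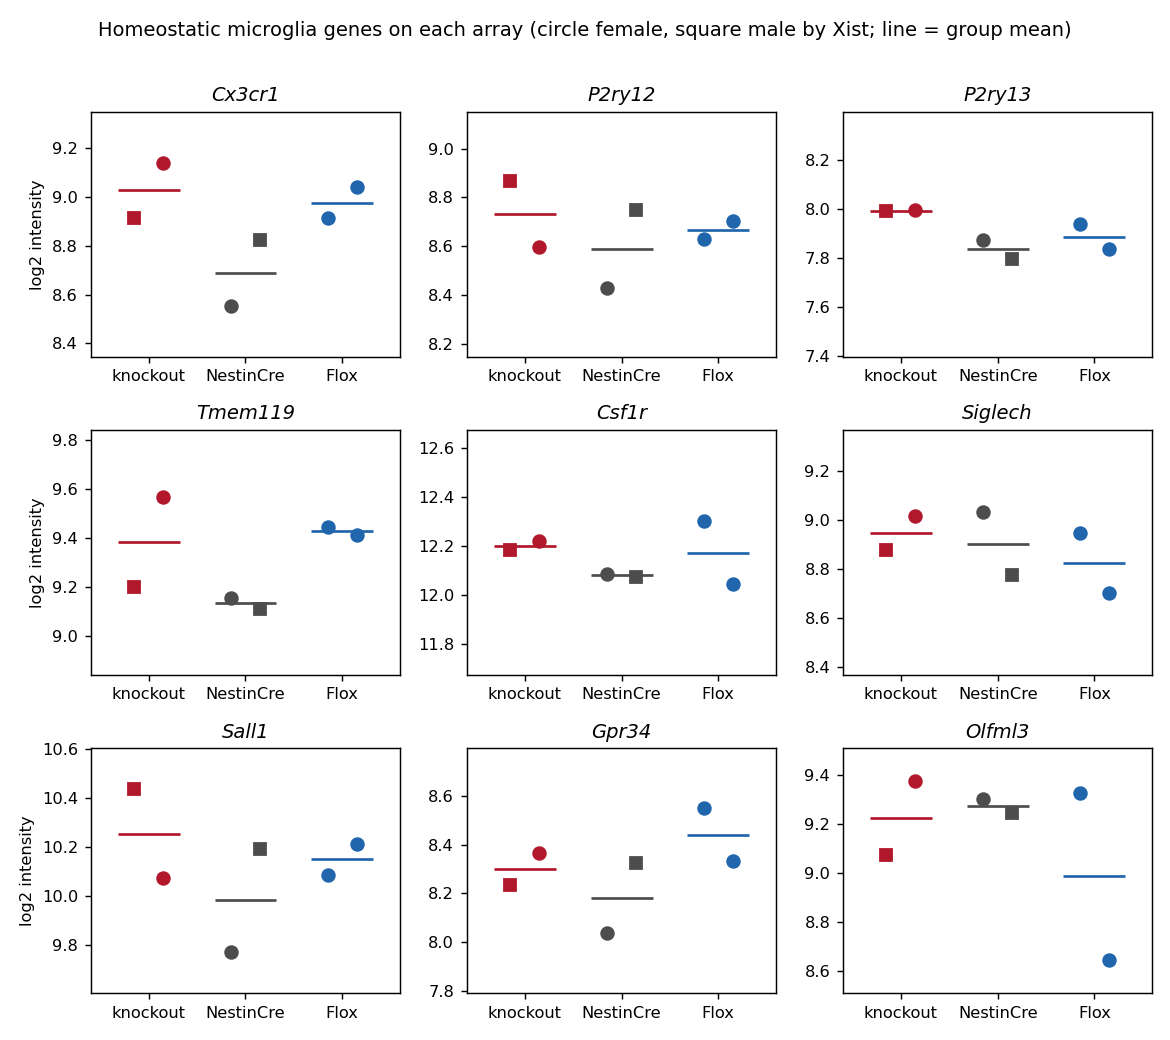
Each panel shows 1 gene's brightest probe set, with log2 intensity on the vertical axis over a span of 1 unit and the 3 groups side by side: 2 knockout, 2 NestinCre control and 2 Flox control arrays. Points are arrays (square, male; circle, female) and lines are group means; P2ry13 is the gene in which both knockout points, 7.99 and 7.99, lie above all 4 control points.

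Cx3cr1 encodes the receptor for fractalkine, the product of Cx3cl1, through which neurons signal to microglia. Its brighter probe set (1450020_at) read 8.91 and 9.14 on the knockout arrays, 8.55 and 8.82 on the NestinCre control arrays, and 8.91 and 9.04 on the Flox control arrays. The NestinCre control arrays were the 2 lowest, and the knockout and Flox control arrays overlapped. Against the NestinCre control the log2 difference was 0.34 (SE 0.13, 95% interval 0.01 to 0.67), a fold of 1.26 (1.0 to 1.59), with an unadjusted p of 0.0468 and an adjusted p of 0.858. Against the Flox control it was 0.05 (SE 0.13), and against both it was 0.19 (SE 0.11, interval -0.09 to 0.48, adjusted p = 0.609). A second Cx3cr1 probe set (1450019_at), dimmer than the median of all probe sets, read 6.05 and 6.06 on the knockout arrays, 5.84 and 6.0 on the NestinCre control arrays, and 6.07 and 6.02 on the Flox control arrays. It gave the same order of group means for the knockout over the NestinCre control, with a difference of 0.13 (SE 0.07, adjusted p = 0.980).

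Csf1r encodes the receptor for Csf1 and Il34 and is needed for microglial survival. Its brightest probe set (1419872_at) read 12.18 and 12.22 on the knockout arrays, 12.08 and 12.07 on the NestinCre control arrays, and 12.30 and 12.04 on the Flox control arrays. The 2 Flox control arrays were the highest and the lowest of all 6, so they enclosed the others. The difference from both controls was 0.07 (SE 0.08, interval -0.14 to 0.29, adjusted p = 0.830). The probe set 1419873_s_at read 10.31 and 10.46 on the knockout arrays, 10.28 and 10.19 on the NestinCre control arrays, and 10.58 and 10.21 on the Flox control arrays. The dimmest of its probe sets, 1423593_a_at, read 8.0 and 8.31 on the knockout arrays, 8.04 and 7.92 on the NestinCre control arrays, and 8.27 and 8.03 on the Flox control arrays. All 3 probe sets placed the NestinCre control lowest in the mean and differed from both controls by 0.07 to 0.09. The knockout and Flox control means did not differ beyond their spread on any of them, with differences of 0.03, -0.01 and 0.00066.

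P2ry12, the ADP receptor that directs microglial processes towards injury, read 8.87 and 8.60 on the knockout arrays, 8.43 and 8.75 on the NestinCre control arrays, and 8.63 and 8.70 on the Flox control arrays (1431724_a_at). The male array was the higher one in both groups that held a male and a female. The difference from both controls was 0.10 (SE 0.12, interval -0.22 to 0.42, adjusted p = 0.844). P2ry13, a further ADP receptor, read 7.99 and 7.99 on the knockout arrays, 7.87 and 7.80 on the NestinCre control arrays, and 7.94 and 7.84 on the Flox control arrays (1428700_at). It was the 1 member probe set of 13 in which both knockout arrays lay above all 4 control arrays, a pattern that 8.77% of all probe sets showed. The difference was 0.13 (SE 0.06, interval -0.01 to 0.28, adjusted p = 0.484), a fold of 1.10 (0.992 to 1.21). No member probe set had both knockout arrays below all controls, which 9.19% of all probe sets did. Although the 2 genes are neighbours on the chromosome, P2ry12 and P2ry13 varied separately over the 6 arrays, with a Pearson r of 0.10.

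Gpr34, an X-linked receptor for lysophosphatidylserine, read 8.23 and 8.37 on the knockout arrays, 8.04 and 8.32 on the NestinCre control arrays, and 8.55 and 8.33 on the Flox control arrays (1422542_at). It was the one gene whose difference from both controls was below 0, at -0.01 (SE 0.11, interval -0.30 to 0.28, adjusted p = 0.990). The Flox control mean was the highest and the NestinCre control mean the lowest, and the knockout lay between them at 0.12 above the NestinCre control (SE 0.13) and -0.14 from the Flox control (SE 0.13).

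Tmem119, a membrane protein used to tell microglia from other macrophages, read 9.20 and 9.57 on the knockout arrays, 9.16 and 9.11 on the NestinCre control arrays, and 9.45 and 9.41 on the Flox control arrays (1451344_at). Both NestinCre control arrays lay below the other 4, while the knockout arrays lay on either side of the Flox control arrays. The difference from both controls was 0.10 (SE 0.11, interval -0.19 to 0.39, adjusted p = 0.824). From the NestinCre control it was 0.25 (SE 0.13) and from the Flox control -0.05 (SE 0.13). Siglech, a sialic-acid-binding lectin of microglia, read 8.88 and 9.02 on the knockout arrays, 9.03 and 8.77 on the NestinCre control arrays, and 8.95 and 8.70 on the Flox control arrays (1436131_at). The 3 groups overlapped, and the difference from both controls was 0.08 (SE 0.11, interval -0.21 to 0.38, adjusted p = 0.872).

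Olfml3, a secreted protein of the olfactomedin-like family, read 9.07 and 9.37 on the knockout arrays, 9.30 and 9.24 on the NestinCre control arrays, and 9.33 and 8.64 on the Flox control arrays (1448475_at). Flox control replicate 2 stood below the other 5 arrays. With a difference from both controls of 0.09 (SE 0.21, adjusted p = 0.937) it was the least precise of the 9 genes, and its interval of -0.45 to 0.64 left room for folds of 0.731 to 1.56. Without Flox control replicate 2 the difference was -0.08 and without knockout replicate 2 it was -0.06, both of which turned its direction.

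Sall1 is a zinc-finger transcription factor that maintains microglial identity and is also known from neural progenitors of the developing brain. Its brighter probe set (1437983_at) read 10.44 and 10.07 on the knockout arrays, 9.77 and 10.19 on the NestinCre control arrays, and 10.09 and 10.21 on the Flox control arrays. Knockout replicate 1 was the highest array and NestinCre control replicate 1 the lowest, and all 3 groups overlapped. The difference from both controls was 0.19 (SE 0.16, interval -0.23 to 0.61, adjusted p = 0.762). A second probe set (1450489_at), dimmer than the median of all probe sets, read 7.30 and 7.51 on the knockout arrays, 7.20 and 7.25 on the NestinCre control arrays, and 7.46 and 7.19 on the Flox control arrays. The 2 probe sets disagreed on which knockout array was higher, although both differences from both controls were above 0, the second at 0.13 (SE 0.11, adjusted p = 0.741).

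**Figure D2:**
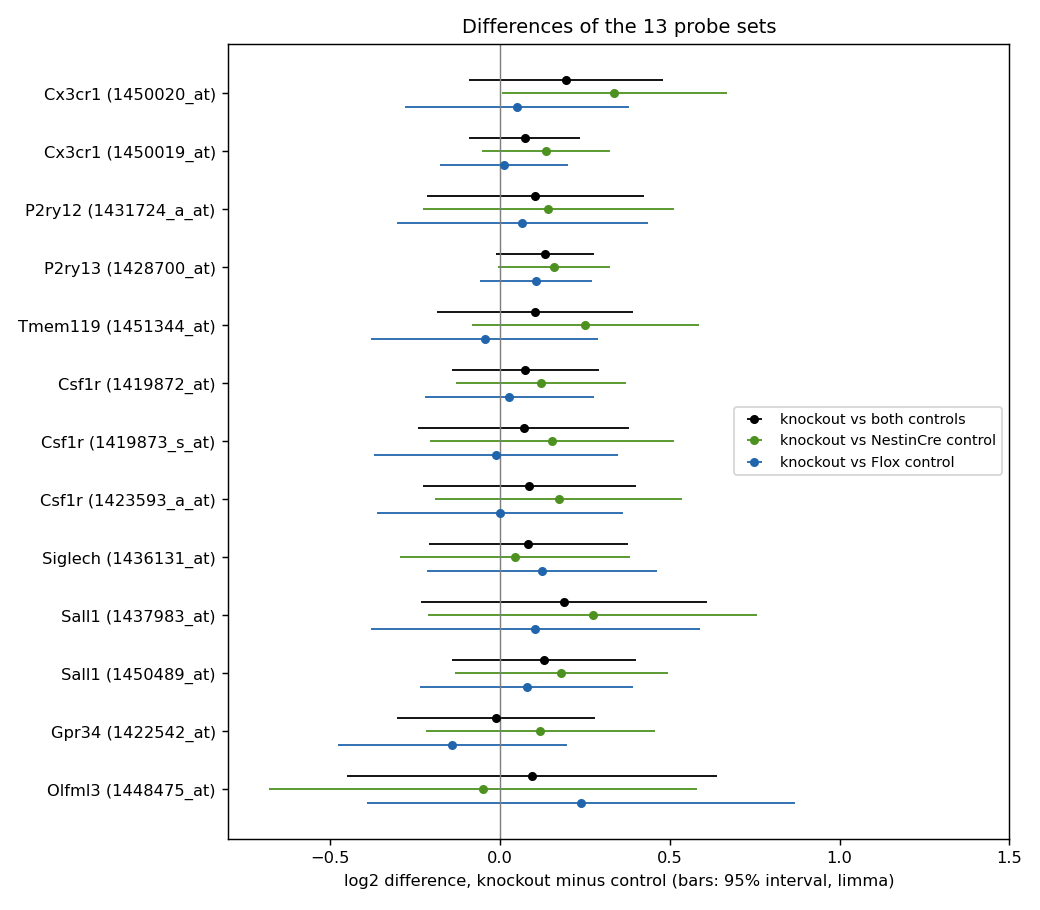
For each of the 13 probe sets, the log2 difference of knockout from both controls (black), from the NestinCre control (green) and from the Flox control (blue) is drawn with its 95% interval from limma. All intervals cross 0 except that of Cx3cr1 (1450020_at) against the NestinCre control, 0.01 to 0.67.

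Between the 2 control groups the median absolute log2 difference was 0.17 over the 9 genes, against 0.09 over all genes. For the knockout against both controls the same measure was 0.10 over the 9 genes and 0.07 over all genes. The NestinCre control lay below the Flox control in 11 of 13 probe sets and 7 of 9 genes, with a median over genes of -0.09, against -0.04 over all genes, of which 35.78% lay above 0. No member passed an adjusted p of 0.05, nor did any other probe set (0%), and 0 of 13 had an unadjusted p under 0.05, against 10.4% of all probe sets. Both NestinCre control arrays lay below both Flox control arrays in 4 of 13 probe sets, those of Tmem119 and Gpr34 and both of Cx3cr1, a pattern seen in 23.6% of all probe sets. The opposite order occurred in 0 of 13 and in 18.8% of all probe sets. For Tmem119 the difference between the controls was -0.30 (SE 0.13, interval -0.63 to 0.04, adjusted p = 0.520), and for Cx3cr1 (1450020_at) it was -0.29 (SE 0.13, adjusted p = 0.526). Olfml3 was the largest in the opposite direction at 0.29 (SE 0.24, adjusted p = 0.742). Pituitary transcripts moved with the Flox control group, with Prl at 7.28 and 9.58 there against 5.52 and 5.39 on the NestinCre control arrays, and their part in these differences was not tested.

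Averaged over the 9 genes after each was centred on its own mean over the 6 arrays, the level was 0.04 and 0.10 on the knockout arrays, -0.13 and -0.04 on the NestinCre control arrays, and 0.08 and -0.05 on the Flox control arrays. Knockout replicate 2 was the highest and Flox control replicate 1 came between the 2 knockout arrays, so the groups overlapped. Of the 9 genes, 5 and 7 were above their own mean on the knockout arrays, 2 and 4 on the NestinCre control arrays, and 7 and 5 on the Flox control arrays.

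The genes did not move as 1 block over the arrays. Of the 36 pairs of genes, each gene taken by its brightest probe set, 26 had a Pearson r above 0 over the 6 arrays. The median r was 0.32. The highest was that of P2ry12 and Sall1 at 0.99, followed by Siglech and Olfml3 at 0.80, Cx3cr1 and Tmem119 at 0.78, and P2ry13 and Csf1r at 0.77. P2ry12 and Sall1 ran against Siglech, with r of -0.64 and -0.60. Set against the mean of the other 8 genes, Csf1r was closest at 0.80 and P2ry13 next at 0.69, while Siglech stood at 0.05 and Olfml3 at -0.02. These values come from 6 arrays whose groups and normalization are shared, and are given as a description.

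**Figure D3:**
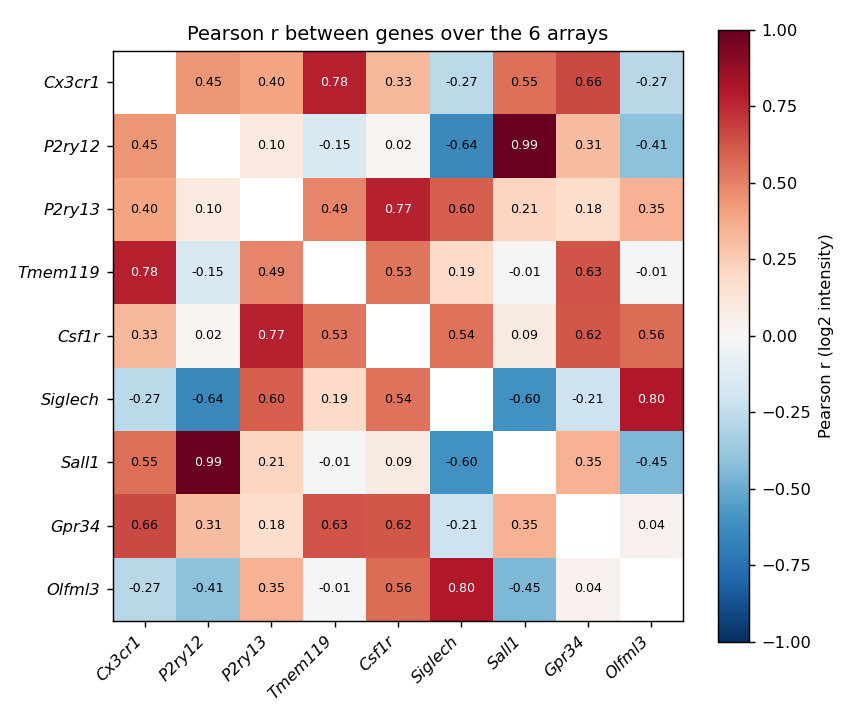
Pearson r between the log2 intensities of each pair of the 9 genes over the 6 arrays (colour scale from -1 to 1, brightest probe set of each gene). P2ry12 and Sall1 reach 0.99, and both are negative with Siglech (-0.64 and -0.60).

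By the brightest probe set of each gene, the 2 with the closest pattern were P2ry12 and Sall1. On these probe sets they were also the genes in which the male array exceeded the female array of its group most. For P2ry12 the male minus female difference was 0.27 in the knockout and 0.32 in the NestinCre control, and for Sall1 (1437983_at) it was 0.36 and 0.42. Siglech ran the other way, with -0.14 in the knockout and -0.26 in the NestinCre control. The male array was also lower in both groups for Tmem119, Olfml3, P2ry13 and every Csf1r probe set. For P2ry13 in the knockout the difference was only -0.0035. The dimmer Sall1 probe set (1450489_at) did not keep the male array higher in both groups, with -0.21 in the knockout and 0.05 in the NestinCre control. Cx3cr1 and the X-linked Gpr34 had opposite signs in the 2 groups, with -0.22 in the knockout and 0.27 in the NestinCre control for Cx3cr1 and -0.13 and 0.29 for Gpr34. The knockout and the NestinCre control each held 1 male and 1 female array, so within either group sex and the individual sample cannot be told apart, and the Flox control held females only. With sex as a covariate the median difference of the 9 genes from both controls was 0.13, and it was 0.04 from the Flox control.

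By the likeness rule, which took genes brighter than the median with an SD over arrays of at least 0.15, 4016 genes could be compared with the mean pattern of the 9. The 5 closest were Cenpj (r = 0.97), which encodes a centriole protein, 4930570G19Rik (0.95), Ccn2 (0.95), which encodes a matricellular protein, Emcn (0.94), an endothelial sialomucin, and Plscr2 (0.94). Plscr2 read 7.85 and 8.03 on the knockout arrays, 6.93 and 7.04 on the NestinCre control arrays, and 7.79 and 7.27 on the Flox control arrays. The highest values among many genes over 6 arrays were picked by construction, so these r are a description only.

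A list of 18 genes expressed across myeloid cells was set beside the homeostatic genes, and its values lay higher on the knockout arrays. All 17 measured pan-myeloid genes lay above 0 against both controls, with a median of 0.37, where 40.65% of all genes lay above 0. An unadjusted p under 0.05 was reached by 12 of them, against 11.1% of all probe sets, but none passed the adjusted threshold. Fcgr3, an Fc receptor, read 9.79 and 9.99 on the knockout arrays, 8.99 and 9.05 on the NestinCre control arrays, and 8.92 and 9.03 on the Flox control arrays, a difference of 0.90 (SE 0.08, adjusted p = 0.0890). Aif1, which encodes the marker protein Iba1, differed by 0.70 (SE 0.06, adjusted p = 0.0978), Ptprc, the leukocyte antigen CD45, by 0.70 (SE 0.09, adjusted p = 0.153) and Tyrobp, a signalling adaptor, by 0.48 (SE 0.07, adjusted p = 0.183). Both knockout arrays lay above all 4 controls for 14 of the 17 genes. By the brightest probe set of each gene, as here, this was so for 1 of the 9 homeostatic genes, and for 8.77% of all probe sets. The summed intensity of the pan-myeloid genes was 23237 and 22890 on the knockout arrays, 19118 and 18528 on the NestinCre control arrays, and 19152 and 18344 on the Flox control arrays. The sum over the 9 homeostatic genes was 9133 and 9322 on the knockout arrays, 8159 and 8505 on the NestinCre control arrays, and 9468 and 8400 on the Flox control arrays, so that of the 2 sums only the pan-myeloid one kept the knockout arrays apart. In both sums the brightest probe sets weigh most. Csf1r (1419872_at) alone gave 4646 of the homeostatic sum on knockout replicate 1 and 5048 on Flox control replicate 1. The difference between the 2 lists was not tested.

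**Figure D4:**
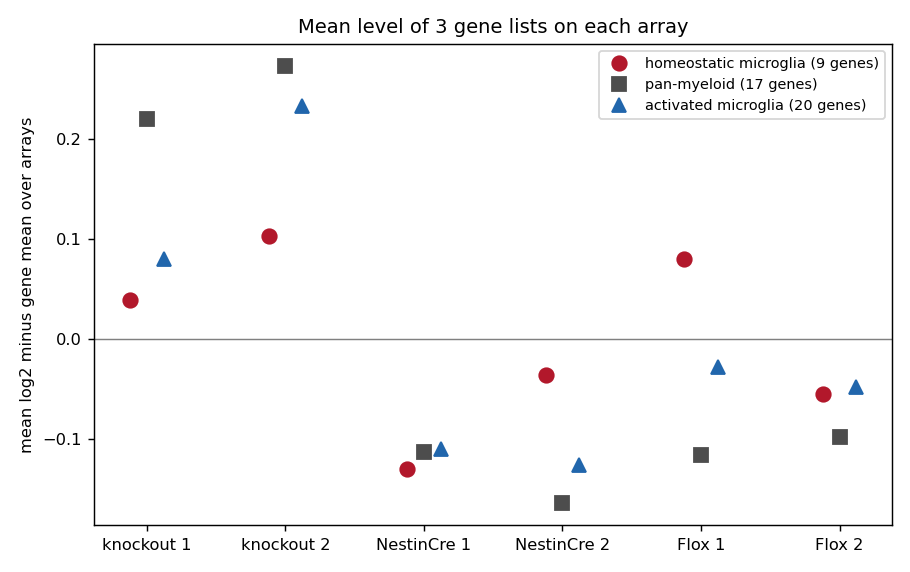
Mean log2 level of the homeostatic (9 genes, circles), pan-myeloid (17 genes, squares) and activated microglia (20 genes, triangles) lists on each of the 6 arrays, after each gene was centred on its mean over arrays. The pan-myeloid mean was 0.22 and 0.27 on the knockout arrays and between -0.16 and -0.10 on the control arrays, while the homeostatic mean overlapped between the groups.

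Genes of activated or disease-associated microglia were divided. Of 20 measured genes out of 22 listed, 12 lay above 0 with a median of 0.27, 8 being higher and 1 lower at an unadjusted p under 0.05, against 11.1% of all probe sets, with none past the adjusted threshold. Clec7a, the beta-glucan receptor dectin, read 7.01 and 6.86 on the knockout arrays, 5.66 and 5.82 on the NestinCre control arrays, and 5.84 and 5.85 on the Flox control arrays, a difference of 1.14 (SE 0.07, adjusted p = 0.0630). Itgax, an integrin chain, differed by 0.70 (SE 0.06, adjusted p = 0.0890). The probe sets of Clec7a and Itgax were dimmer than the median of all probe sets. Tyrobp, which is among the genes shared with the pan-myeloid list, differed by 0.48. Apoe, a lipoprotein that astrocytes also make, differed by -0.55 (SE 0.12, adjusted p = 0.260). The mean level of the list was 0.08 and 0.23 on the knockout arrays, -0.11 and -0.13 on the NestinCre control arrays, and -0.03 and -0.05 on the Flox control arrays.

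When the mean of the pan-myeloid genes was subtracted on each array, the mean of the 9 homeostatic genes was -0.18 and -0.17 on the knockout arrays, -0.02 and 0.13 on the NestinCre control arrays, and 0.20 and 0.04 on the Flox control arrays. By this measure, which was chosen after the values were seen and has no test, the mean of the 9 genes on both knockout arrays lay below all 4 controls. Taken singly, 4 of the 9 genes did so, P2ry13, Csf1r, Siglech and Gpr34, and the other 5 overlapped. Of all 18193 genes 87.4% lay below all 4 controls by the same measure, since the subtracted mean was itself higher on the knockout arrays, so 4 of 9 is no more than the background.

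Another 23 genes named as part of the resting microglial programme, of which 22 were measured, lay on both sides of 0. There were 13 above 0 with a median of 0.02, where 40.65% of all genes lay above 0. At an unadjusted p under 0.05, 2 were higher and 1 was lower, a share near the 11.1% of all probe sets that passed. Lag3, an immune checkpoint receptor, read 7.98 and 8.42 on the knockout arrays, 6.82 and 6.65 on the NestinCre control arrays, and 6.85 and 6.74 on the Flox control arrays, a difference of 1.43 (SE 0.14, adjusted p = 0.107). Its probe set was dimmer in the mean over arrays than the median of all probe sets. Entpd1, the ectonucleotidase CD39 that breaks down ATP and ADP, differed by 0.57 (SE 0.07, adjusted p = 0.144), Scoc by -0.18 (SE 0.07, adjusted p = 0.420) and Lrrc3 by 0.26 (SE 0.10, adjusted p = 0.452).

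Medians of the ligand and regulator lists lay between 0.00150 and 0.09. The ligands Csf1, Il34 and Cx3cl1 differed by 0.09, -0.09 and 0.09, and none had an unadjusted p under 0.05. Among 11 measured transcription factors of myeloid cells out of 12, the median was 0.03 and 2 had an unadjusted p under 0.05, against 11.1% of all probe sets: Irf8 at 0.45 (SE 0.07, adjusted p = 0.183) and Ikzf1 at 0.38 (SE 0.15, adjusted p = 0.444). Mef2a, at 0.04, and Tal1, at -0.10, came next by p and did not. The Irf8 probe set was dimmer than the median of all probe sets. Among 15 measured genes of TGF-beta signalling out of 16, the median was 0.00150, and 1 was higher and 3 were lower at an unadjusted p under 0.05, against 11.1% of all probe sets in either direction: Tgfbr3 at 0.23 (SE 0.08), Smad2 at -0.21 (SE 0.05), Itgb8 at -0.22 (SE 0.05) and Ltbp1 at -0.16 (SE 0.06). The adjusted p of these 4 genes ran from 0.277 to 0.420.

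The purinergic list holds receptors for nucleotides, nucleotide sugars and adenosine, receptors related to them by sequence, and enzymes that break nucleotides down. Of 15 measured genes out of 18, 8 lay above 0 with a median of 0.00055, and 1 was higher and 3 were lower at an unadjusted p under 0.05, against 11.1% of all probe sets. P2ry14, the UDP-sugar receptor whose gene lies close to P2ry12 and P2ry13, read 6.86 and 7.0 on the knockout arrays, 7.68 and 7.70 on the NestinCre control arrays, and 8.01 and 8.0 on the Flox control arrays. Both knockout arrays lay below all controls, with a difference of -0.91 (SE 0.06, adjusted p = 0.0581), whereas P2ry13 and P2ry12 stood at 0.13 and 0.10. Entpd2, an ectonucleotidase, read 7.47 and 7.67 on the knockout arrays, 8.56 and 8.44 on the NestinCre control arrays, and 8.88 and 8.89 on the Flox control arrays, a difference of -1.13 (SE 0.08, adjusted p = 0.0692). Entpd1 stood at 0.57, as above, and Entpd3 at -0.17 (SE 0.06, adjusted p = 0.397).

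**Figure D5:**
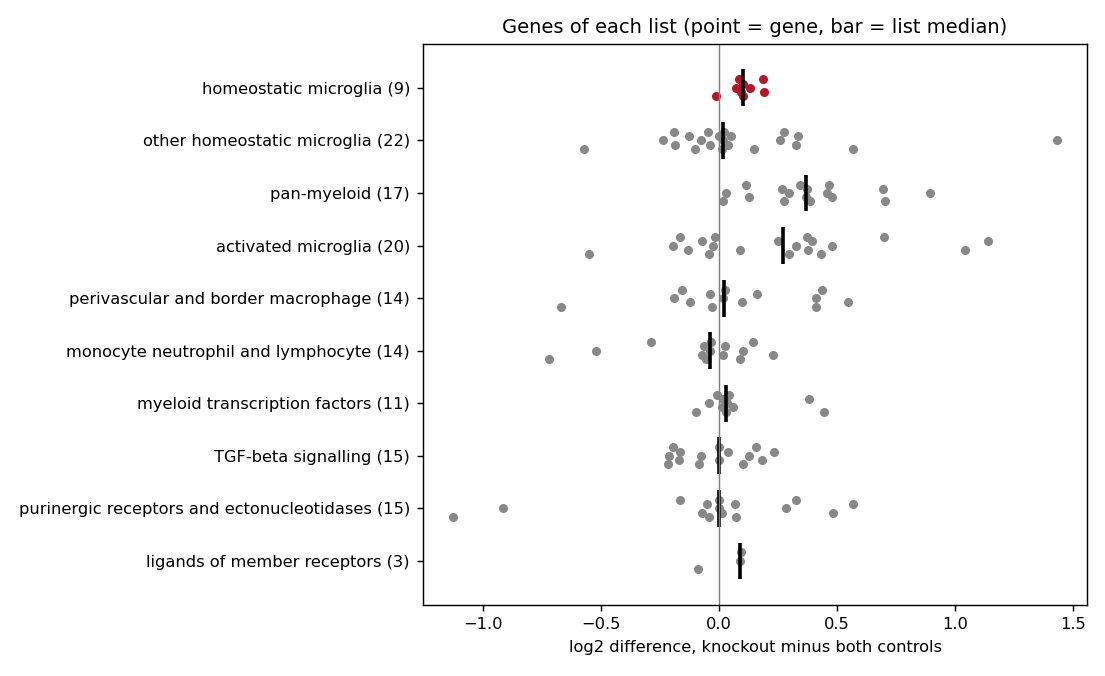
Each point is a gene's log2 difference of knockout from both controls, arranged by list with the number of measured genes in brackets, and the black bar is the list median. The homeostatic genes lie between -0.01 and 0.19 with a median of 0.10, and the pan-myeloid genes between 0.02 and 0.90 with a median of 0.37.

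Lists for other cells that whole brain can hold gave these values against both controls. The share of all probe sets at an unadjusted p under 0.05, against which the counts below stand, was 11.1%. Among 14 perivascular and border macrophage genes the median was 0.02, with 4 higher at that threshold: Mrc1 (0.41), Lyve1 (0.41), F13a1 (0.44) and Cd163 (0.55), with adjusted p from 0.246 to 0.446. None was lower at that threshold, but 6 of the 14 lay below 0, down to -0.67. Both knockout arrays lay above all 4 controls for 5 genes and below them for 3, where 8.77% and 9.19% of all probe sets did so. The summed intensity of all 14 genes overlapped between the groups, at 4225 and 3750 on the knockout arrays, 3669 and 3983 on the NestinCre control arrays, and 3486 and 4253 on the Flox control arrays. The median of 14 measured monocyte, neutrophil and lymphocyte genes was -0.04, and only 1 of them was brighter than the median probe set. NestinCre control replicate 2 stood apart in S100a8, a neutrophil protein, at 9.16 against 6.17 to 6.56 on the other 5 arrays. Medians were -0.01 for neuronal, -0.16 for astrocyte, -0.04 for myelinating oligodendrocyte, 0.12 for oligodendrocyte precursor, 0.13 for endothelial, 0.02 for meningeal fibroblast and -0.14 for platelet genes. Pericyte and smooth muscle genes had a median of -0.64 over 12 genes, 9 of them lower at an unadjusted p under 0.05, and Rgs5 fell by 2.16 on the log2 scale (SE 0.08, adjusted p = 0.0263). That call was lost with the replicate block, with sex as covariate and when any 1 array other than Flox control replicate 2 was left out, since no probe set then passed the adjusted threshold. The part of these shifts in the homeostatic values was not tested.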

How the data were processed

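The deposited table holds 1 intensity per probe set and array on a linear scale. The submitters' processing notes list GCOS and RMA with neither role nor version. RMA brings arrays to a common distribution, so a shift shared by most genes is not seen. No genome build is named for the annotation in the labels or files. Log2 values had been planned for, and the deposited intensities were converted to log2 before any test. Of 45101 probe sets, 64 controls were left out. The test was limma 3.58.1 in R 4.3.3 (lmFit, eBayes) on 3 group means over all 6 arrays, with Benjamini-Hochberg adjustment over 45037 probe sets and a threshold of 0.05. Gene-level values use the brightest probe set with 1 symbol. An SE is that of the limma difference, and positive differences are higher in the group named first. The fit was tested on simulated data.

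The 9 genes and all 18 lists were chosen with earlier results of these data known, so list counts are descriptions. All 9 genes were named; of each microglial, myeloid or regulatory list up to 4 genes by smallest p were named, and of the brain and blood cell lists only the genes the text turns on. S100a8, Gh and Prl were named after their values were seen. Separate animals are not named in the labels. The replicates of the knockout and of the NestinCre control differ in sex and so come from different animals, while the spread of the Flox control pair may be technical. The 2 arrays per group limit the precision. Alternatives were a repeated quantile normalization, centring, a filter on dim probe sets, an intensity trend with and without robust fitting, the compared groups alone, a replicate block, 1 probe set per gene, all probe sets in the median, control probe sets kept, a pseudocount of 16, sex as covariate and each array left out.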

Additional observations from a re-analysis of the deposited data

How the results depend on the processing

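Under the 17 alternatives no member probe set passed an adjusted p of 0.05 in any comparison. The median difference of the 9 genes stayed above 0 in all 3 knockout comparisons and below 0 between the controls. Of 202 values per probe set against both controls 10 changed sign, of 215 against the NestinCre control 5, of 215 against the Flox control 23, and of 215 between the controls 8. The count of probe sets with an unadjusted p under 0.05 against the NestinCre control was 0 with an intensity trend, 0 with robust fitting as well, 0 with the compared groups alone and 2 with a pseudocount of 16, against 1 in the report. Between the controls it was 1 after centring, 1 with the compared groups alone and 2 with sex as covariate, which also took the median to -0.19. Over the whole table, the count past the adjusted threshold against both controls was 7 in the report, 22 after centring, 34 with the filter on dim probe sets, 34 with 1 probe set per gene, 135 with an intensity trend, 202 with robust fitting as well, 0 with the replicate block, 0 with sex as covariate and 0 to 1 with an array left out. The compared groups alone were not run against both controls, which use every array.

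Leaving out each array in turn gave counts at an unadjusted p under 0.05 of 0 to 1 against both controls, 0 to 2 against the NestinCre control, 0 to 1 against the Flox control and 0 to 3 between the controls. The median ran from 0.056 (without knockout replicate 2) to 0.14 (without Flox control replicate 1) against both controls, from 0.10 (without knockout replicate 2) to 0.23 (without NestinCre control replicate 2) against the NestinCre control, from 0.0017 (without Flox control replicate 2) to 0.11 against the Flox control, and from -0.23 (without NestinCre control replicate 2) to -0.090 between the controls.

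The values that changed sign were these. Against the Flox control, repeated quantile normalization gave -0.019 for Cx3cr1 (1450019_at) and 0.013 for Csf1r (1419873_s_at). Centring gave -0.013 for that Cx3cr1 probe set and -0.024 for Csf1r (1423593_a_at). Sex as covariate gave -0.028 for the same Cx3cr1 probe set, -0.080 for P2ry12, 0.058 for Tmem119, 0.047 for Csf1r (1419873_s_at) and -0.092 for Sall1 (1437983_at). With single arrays left out, the difference from both controls ranged over -0.030 to 0.24 for P2ry12, -0.083 to 0.29 for Tmem119, -0.022 to 0.16 for Csf1r (1419873_s_at), -0.067 to 0.24 for Csf1r (1423593_a_at), -0.082 to 0.060 for Gpr34 and -0.077 to 0.27 for Olfml3. Against the NestinCre control it ranged over -0.017 to 0.30 for P2ry12, -0.085 to 0.17 for Siglech, -0.024 to 0.26 for Gpr34 and -0.20 to 0.10 for Olfml3. Against the Flox control it ranged over -0.062 to 0.16 for Cx3cr1 (1450020_at), -0.012 to 0.034 for Cx3cr1 (1450019_at), -0.068 to 0.20 for P2ry12, -0.23 to 0.14 for Tmem119, -0.10 to 0.16, -0.20 to 0.17 and -0.15 to 0.15 for the Csf1r probe sets 1419872_at, 1419873_s_at and 1423593_a_at, -0.077 to 0.29 for Sall1 (1437983_at), -0.057 to 0.21 for Sall1 (1450489_at) and -0.10 to 0.58 for Olfml3. Between the controls it ranged over -0.23 to 0.083 for P2ry12, -0.22 to 0.036 and -0.35 to 0.021 for Csf1r 1419872_at and 1419873_s_at, -0.049 to 0.21 for Siglech, -0.38 to 0.042 and -0.24 to 0.033 for Sall1 1437983_at and 1450489_at, and -0.055 to 0.63 for Olfml3. The cause of these changes was not tested. The dim probe sets of Cx3cr1 and Sall1 have no value under the filter on brightness.

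Deviations of same-numbered arrays from their group means were compared between groups by correlation. The r was -0.31 for knockout and NestinCre control, -0.24 for knockout and Flox control and 0.19 for NestinCre and Flox control. These values cannot show whether the numbers pair the samples, since each group gives only the difference between its arrays. Same-numbered knockout and NestinCre control arrays also differ in sex. With the replicate block the count at an unadjusted p under 0.05 was 1 against both controls and 1 between the controls, and no member passed the adjusted threshold.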
